A study of Mus musculus with 48 samples.

Results

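The effect of skeletal-muscle FoxP1 deletion was examined in the tibialis anterior of mice bearing orthotopic KPC pancreatic tumors, by setting the libraries of FoxP1SkmKO KPC mice against those of wild-type (WT) KPC mice. The members are 24 of the series' 48 RNA-seq libraries, 12 from FoxP1SkmKO KPC mice and 12 from WT KPC mice, chosen by genotype and tumor label. The tibialis anterior is a fast-twitch muscle of the lower leg. All mice were male, 39 to 55 weeks old, and had been moved from a cycle of 12 hours of light and dark into constant darkness, with circadian time (CT) counted from its start. Each genotype had 2 mice at each of 6 times, CT18, CT22, CT26, CT30, CT34, and CT38. FoxP1SkmKO mice are labelled as Foxp1 fl/fl animals carrying Acta1-cre, in which the skeletal actin promoter drives Cre in muscle fibers, so that the other cells of the muscle keep the gene. The WT mice are FoxP1fl/fl mice without Cre in the series' design text, while the sample labels give their genotype as C57BL/6J. Cre went with the deletion in every comparison. If the WT mice were C57BL/6J, the floxed alleles and any strain difference did too. None of these can be told apart from the loss of FoxP1. KPC mice received murine KPC pancreatic cancer cells in phosphate-buffered saline (PBS) injected into the pancreas. The tumor-free mice of the same genotypes, which received PBS alone, were used only as a second, independent set of 24 libraries from other mice.

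FOXP1 is a forkhead transcription factor that mostly represses its targets. In muscle it is known as a target of FOXO1 that is raised during cancer cachexia, the loss of muscle mass that accompanies many tumors. Muscle wasting draws on the ubiquitin ligases *Trim63* and *Fbxo32*, on autophagy, and on glucocorticoid signaling, and the clock genes (*Arntl*, *Clock*, and their *Per*, *Cry*, and *Nr1d* repressors) set the daily timing of much of the metabolism of muscle fibers.

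Total counts per library ranged from 14480867 to 20787784. The variance of the counts between the 2 mice of a group, averaged over genes, was 5.15 to 17.4 times that of Poisson sampling alone. The muscle fiber markers, among them *Ckm* and *Acta1*, summed to between 47683 and 63750 FPKM (fragments per kilobase of transcript, scaled to the mapped fragments of the library) in each KPC library. Among the KPC libraries 4 stood apart. FoxP1SkmKO KPC replicate 2 at CT18 held 254 FPKM of 10 liver transcripts against at most 10.1 in any other KPC library. In FoxP1SkmKO KPC replicate 2 at CT30 and at CT26, 6 genes that rise in denervated or damaged muscle summed to 65.7 and 36.1 FPKM. The others held at most 20.9. In these 2 libraries *Igfn1* had 24.3 and 15.6 FPKM and the acetylcholine receptor subunit *Chrna1* 19.3 and 7.92 FPKM. WT KPC replicate 1 at CT30 had no read of the 4 Y-linked genes examined, although it is labelled male. It had 1 read of *Xist*, which female cells express, where the other KPC libraries had 0 to 3. The results below are given with and without these 4 libraries where they differ, and what set them apart was not tested. In whole muscle, fewer cells of a type and less RNA per cell cannot be told apart.

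*Foxp1*, the targeted gene (ENSMUSG00000030067; mm39 chromosome 6, 98902299 to 99499682, minus strand), was measured at a low level in both genotypes. Over the 12 WT KPC mice it lay at 0.454, 0.636, and 0.757 FPKM (lowest, median, and highest). In the 12 FoxP1SkmKO KPC mice these values were 0.419, 0.531, and 0.653 FPKM. The groups overlapped, and both FoxP1SkmKO mice lay below both WT mice at 3 of the 6 times. The log2 fold change between the genotypes, with circadian time as a covariate, was -0.20 (standard error 0.08), a fold of 0.869 with a 95% interval of 0.777 to 0.971, and the adjusted p was 0.405 (quasi-likelihood F-test in edgeR, Benjamini-Hochberg adjusted over the 15024 genes tested). An exact two-sided permutation test of the mean FPKM, exchanging genotypes within each circadian time, gave p = 0.0156. By time the log2 difference ran from -0.53 at CT38 and -0.42 at CT18 to 0.06 at CT22, and no time passed the threshold. In tumor-free mice the log2 fold change was -0.11 (adjusted p = 0.517). The count covers every exon of the gene and every cell of the muscle, and the reads of the deleted exons alone were not analysed here, so the genotypes are named as labelled.

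Across the whole transcriptome, 3 of 15024 genes (0.02%) differed between FoxP1SkmKO KPC and WT KPC mice at an adjusted p under 0.05, of which 2 were higher (0.0133%) and 1 was lower (0.00666%) in FoxP1SkmKO mice. The higher genes were *Nr4a1*, an orphan nuclear receptor and immediate early gene that contraction and adrenergic signals induce in muscle, and *Slc25a25*, a calcium-sensitive carrier that exchanges ATP-Mg for phosphate across the inner mitochondrial membrane. The lower gene was *Wls*, the membrane protein that carries Wnt ligands to the cell surface for secretion. At an unadjusted p under 0.05 there were 1371 genes (9.13%), 754 higher (5.02%) and 617 lower (4.11%). Without the 4 libraries that stood apart, 0 of 15459 genes were called, with 994 (6.43%) at an unadjusted p under 0.05. The count also fell to 0 when any one of WT KPC CT22 replicate 2, WT KPC CT30 replicate 2, or FoxP1SkmKO KPC CT26 replicate 2 was left out, and to 1 without FoxP1SkmKO KPC CT34 replicate 2. It was 71 without WT KPC CT22 replicate 1 and 53 without FoxP1SkmKO KPC CT22 replicate 2.

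*Nr4a1* (ENSMUSG00000023034; mm39 chromosome 15, 101152150 to 101172676, plus strand) had 32.6, 49.3, and 55.1 FPKM (lowest, median, and highest) in WT KPC mice. In FoxP1SkmKO KPC mice it had 47.1, 58.6, and 90.6 FPKM. Both FoxP1SkmKO mice lay above both WT mice at all 6 circadian times, and 6 of the 12 lay above every WT KPC mouse. The fold was 1.34 (95% interval 1.22 to 1.48), with a log2 fold change of 0.42 (standard error 0.07, adjusted p = 0.0143 by edgeR). The difference was largest at CT30, where the FoxP1SkmKO mice had 90.6 and 83.7 FPKM and the WT mice 44.3 and 50.4 FPKM (log2 fold change 0.88, standard error 0.12, adjusted p = 0.00936). It was smallest at CT18, with 50.7 and 47.1 FPKM against 43.4 and 43.5 FPKM. A test of whether the genotype difference itself changed with time did not pass (adjusted p = 0.649). Leaving out the 4 libraries that stood apart gave a log2 fold change of 0.37 (adjusted p = 0.144).

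*Slc25a25* (ENSMUSG00000026819; mm39 chromosome 2, 32304499 to 32341457, minus strand) showed the largest ratio of the 3 genes. It had 1.45, 3.03, and 10.7 FPKM in WT KPC mice and 2.93, 9.22, and 18.0 FPKM in FoxP1SkmKO KPC mice. The ranges overlapped, 4 FoxP1SkmKO mice exceeded every WT mouse, and both exceeded both WT mice at 5 of 6 times. At CT26 the pairs crossed, with 2.93 and 9.13 FPKM in FoxP1SkmKO mice and 6.94 and 1.45 FPKM in WT mice. The fold was 2.50 (95% interval 1.81 to 3.44; log2 fold change 1.32, standard error 0.23, adjusted p = 0.0204). Both genotypes were highest at CT38, at 18.0 and 16.3 FPKM in FoxP1SkmKO mice and 7.05 and 10.7 FPKM in WT mice. Its call was also lost when WT KPC replicate 1 of CT30, CT34, or CT38 was left out, and without the 4 libraries that stood apart the log2 fold change was 1.07 (adjusted p = 0.253).

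*Wls* (ENSMUSG00000028173; mm39 chromosome 3, 159545309 to 159644300, plus strand) was the gene that fell. It had 1.94, 2.43, and 2.81 FPKM in WT KPC mice and 1.48, 1.96, and 2.24 FPKM in FoxP1SkmKO KPC mice. Of the FoxP1SkmKO mice 6 lay below every WT mouse, and both lay below both WT mice at every time but CT22. The fold was 0.791 (95% interval 0.731 to 0.855; log2 fold change -0.34, standard error 0.05, adjusted p = 0.0143). By time its log2 difference ran from -0.54 at CT26 to -0.17 at CT22, so the direction was the same at all 6 times. The log2 fold change was -0.31 (adjusted p = 0.188) without the 4 libraries that stood apart.

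**Figure D1:**
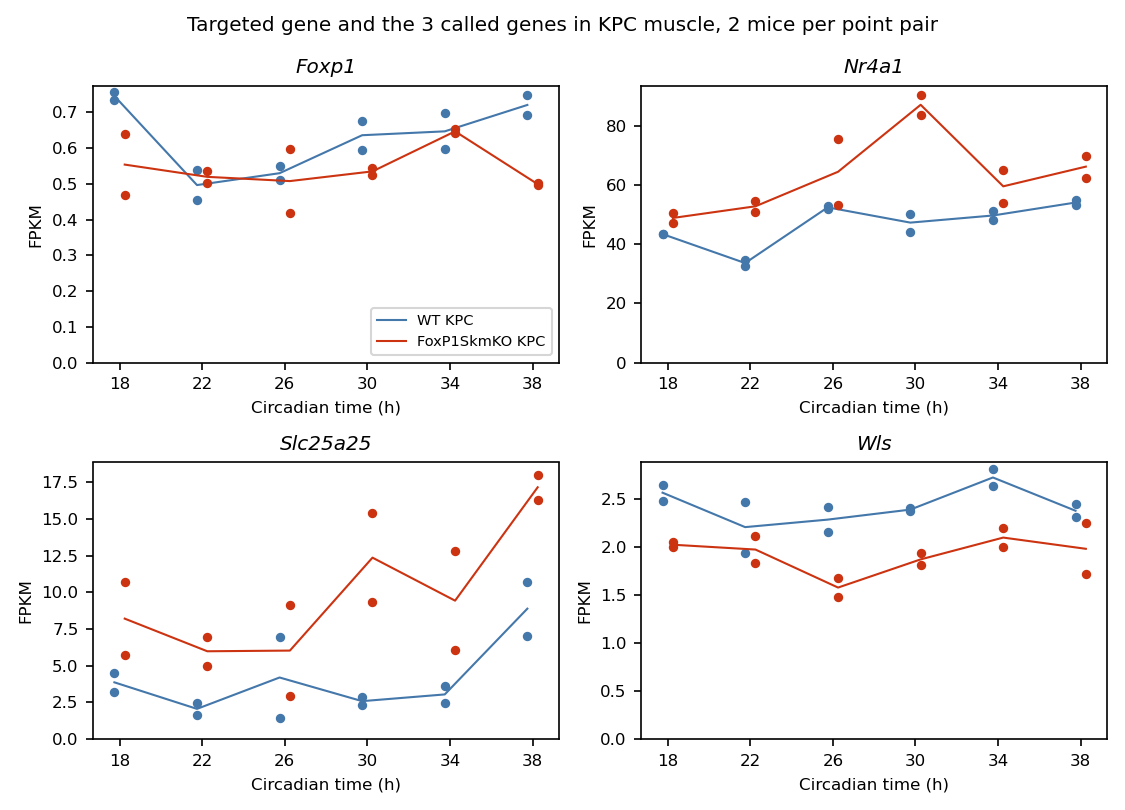
FPKM (y axes) of *Foxp1*, *Nr4a1*, *Slc25a25*, and *Wls* against circadian time in hours (x axes) in WT KPC and FoxP1SkmKO KPC mice, with 1 point per mouse and a line through the mean of the 2 mice at each time. The genotypes interleave for *Foxp1*, both FoxP1SkmKO mice lie above both WT mice at all 6 times for *Nr4a1* and at 5 for *Slc25a25*, and both lie below at 5 times for *Wls*.

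The promoter sequences of the 2 genes that rose were searched for the cAMP response element bound by CREB-family factors, since *Nr4a1* is known to be induced through cAMP and calcium, and for a forkhead motif. The windows are the 250 bases before a RefSeq transcription start in GRCm38.p6, an earlier build than the mm39 of the gene coordinates above, and the motifs were chosen after the calls were known. *Nr4a1* (chr15:101266596-101266845, plus strand) and the last of 3 listed starts of *Slc25a25* (chr2:32424067-32424316, minus strand) are shown 5′ to 3′, with matches in capitals.

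*Nr4a1* promoter: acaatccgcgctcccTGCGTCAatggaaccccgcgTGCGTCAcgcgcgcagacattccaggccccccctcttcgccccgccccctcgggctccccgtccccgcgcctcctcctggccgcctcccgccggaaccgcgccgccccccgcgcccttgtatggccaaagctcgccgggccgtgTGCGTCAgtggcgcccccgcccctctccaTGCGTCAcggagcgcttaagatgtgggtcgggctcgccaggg

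*Slc25a25* promoter: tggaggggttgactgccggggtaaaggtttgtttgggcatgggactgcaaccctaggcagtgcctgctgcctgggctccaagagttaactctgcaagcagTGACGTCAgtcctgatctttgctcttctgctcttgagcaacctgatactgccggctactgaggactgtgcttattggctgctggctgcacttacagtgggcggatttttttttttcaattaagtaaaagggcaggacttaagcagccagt

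The *Nr4a1* window held 4 copies of the element variant TGCGTCA and the *Slc25a25* window 1 copy of the palindrome TGACGTCA, counted on both strands. The windows of the other 2 listed starts of *Slc25a25* held neither. The first motif occurred in 574 of 32851 RefSeq promoter windows (1.75%) and the second in 508 (1.55%). Of the 10765 genes tested in KPC mice that had a window, 363 (3.37%) held the first and 314 (2.92%) the second in at least 1 window. The forkhead motif TGTTTAC (1040 windows, 3.17%) was not in these windows, nor was any of the 3 motifs in the window of *Wls*. Among the other genes examined by name, the first motif was in windows of *Bex1*, *Ankrd9*, and *Cry2*, and the second of *Hlf*. Of these, *Bex1* and *Hlf* had lower values in FoxP1SkmKO KPC mice. The forkhead motif was in windows of *Lpin2* and *Etl4*, which had higher values, of *Egf*, which had lower values, and of *Klf9* and *Cry1*. Whether any of the motifs went with the genotype difference was not tested. The counts are per gene and do not say which start was used, and a match is only a run of letters.

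Behind the 3 called genes, the genes with the next smallest p did not pass the threshold in these 24 libraries, and their values are given without a call. On the higher side were *Lonrf1*, a RING-finger protein (log2 fold change 0.44), *Inha*, the inhibin alpha subunit (0.64), *Lpin2*, a phosphatidate phosphatase (0.48), and *Etl4* (0.22), each at an adjusted p of 0.0546. *Lpin2* was low, with 0.228 to 0.339 FPKM in WT KPC mice and 0.335 to 0.562 FPKM in FoxP1SkmKO KPC mice, yet 9 of the 12 FoxP1SkmKO mice lay above every WT mouse and both lay above both at 6 of 6 times. *Inha* had 2.86 to 5.96 FPKM in WT and 4.40 to 13.4 FPKM in FoxP1SkmKO mice, and its highest value came from CT26 replicate 2, 1 of the libraries that stood apart.

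On the lower side were *Gca*, the calcium-binding protein grancalcin (log2 fold change -0.43, adjusted p = 0.0546), *Tmem47* (-0.49, adjusted p = 0.0566), *Thg1l*, which adds a guanine to histidine tRNA (-0.51, adjusted p = 0.0827), *Egf*, the epidermal growth factor precursor (-0.44, adjusted p = 0.0827), and *Cntln*, a centrosomal protein (-0.67, adjusted p = 0.0952). *Cntln* lay at 0.110 to 0.260 FPKM in FoxP1SkmKO and 0.211 to 0.451 FPKM in WT mice, with 8 FoxP1SkmKO mice below every WT mouse. When only genes with a mean CPM (counts scaled to the library total) of at least 1 were tested, 8 genes were called, namely the 3 above with *Etl4*, *Inha*, *Lonrf1*, *Lpin2*, and *Gca*.

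**Figure D2:**
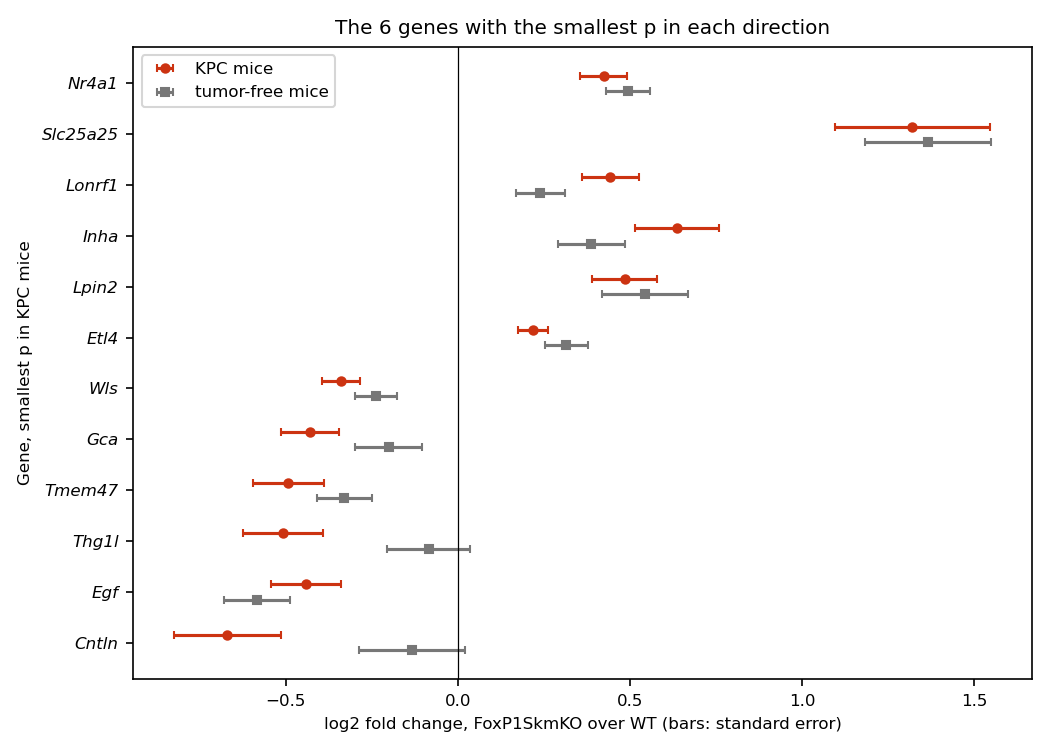
Log2 fold change of FoxP1SkmKO over WT (x axis, bars show 1 standard error) for the 6 genes with the smallest p in each direction in KPC mice (y axis), in KPC mice (circles) and tumor-free mice (squares). The values in KPC mice run from -0.67 for *Cntln* to 1.32 for *Slc25a25*.

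The effect of FoxP1 deletion in KPC mice was next set against its effect in tumor-free mice. No gene of 15637 (0%) had an adjusted p under 0.05 for the difference between the effects by edgeR, where the lowest adjusted p was 0.578 and 1020 genes (6.52%) had an unadjusted p under 0.05. DESeq2 also called 0 genes, with 771 at an unadjusted p under 0.05. For the 3 called genes, the effect in KPC mice minus that in tumor-free mice was -0.07 for *Nr4a1* (adjusted p = 0.927), -0.05 for *Slc25a25* (adjusted p = 0.992), and -0.10 for *Wls* (adjusted p = 0.865) on the log2 scale. The p-values that miss the threshold do not show that the effects were equal.

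The tumor-free mice share no animal with the KPC mice, so the genes called there could be read in the KPC mice as a separate set of samples. Both sets hold the same 2 genotypes, so values shared by them cannot tell the loss of FoxP1 from Cre or strain. Among tumor-free mice 546 of 15151 genes (3.6%) were called, 292 higher (1.93%) and 254 lower (1.68%) in FoxP1SkmKO mice, and 535 of them were tested in KPC mice. In KPC mice 503 of the 535 (94.0%) lay on the same side of 0, where 60.7% of all 14774 genes tested in both did. With an unadjusted p under 0.05 as well, 255 of the 535 (47.7%) lay on the same side in KPC mice, beside 7.38% of all genes. The one gene with an unadjusted p under 0.05 in the opposite direction was *Wdfy4*, named after its values were seen, at -0.37 in KPC mice and 1.25 in tumor-free mice. Without the 4 KPC libraries that stood apart the count fell to 151 of 533 (28.3%, beside 4.74% of all genes), 450 (84.4%) lay on the same side of 0, beside 58.6% of all genes, and 2 genes had an unadjusted p under 0.05 in the opposite direction. When 3 tumor-free libraries with liver transcripts or a high *Chrna1* set were left out as well, 255 genes were called in tumor-free mice, of which 233 of 253 (92.1%) lay on the same side in KPC mice, 110 (43.5%, beside 4.92%) with an unadjusted p under 0.05.

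The 281 genes higher in tumor-free FoxP1SkmKO mice had a median log2 fold change of 0.20 in KPC mice and 0.38 in tumor-free mice, and the 254 lower genes had -0.12 and -0.25. The tumor-free values chose these genes so the sizes in the 2 conditions cannot be compared. Liver genes were 15 of the 535, and without them 249 of 520 lay on the same side with an unadjusted p under 0.05.

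The 8 genes with the smallest p in tumor-free mice in each direction, a choice made after the values were seen and without the KPC mice, had the following levels in KPC mice. Besides *Nr4a1* and *Slc25a25*, the higher ones were *Tiam1*, an exchange factor for the GTPase Rac (log2 fold change 1.12 in KPC mice), *Cacnb4*, a calcium channel beta subunit (1.44), *Tnfrsf19*, a receptor of the tumor necrosis factor family (0.57), *Tulp3*, which acts in ciliary trafficking (0.55), *Mfhas1* (0.55), and *Slc8a3*, a sodium-calcium exchanger (0.24), with adjusted p between 0.0559 and 0.212. *Tiam1* had 0.920, 1.48, and 6.53 FPKM in WT KPC mice and 1.38, 4.05, and 5.63 FPKM in FoxP1SkmKO KPC mice (lowest, median, and highest). No FoxP1SkmKO mouse exceeded the highest WT mouse, although both exceeded both at 5 of 6 times. *Slc8a3*, the most abundant of these 6 at 18.4 to 27.5 FPKM in WT and 19.8 to 36.6 FPKM in FoxP1SkmKO mice, had 7 FoxP1SkmKO mice above every WT mouse.

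The lower genes were *Mss51*, a mitochondrial protein of muscle (-0.64 in KPC mice), *Bex1* (-0.47), *Cbr2*, a carbonyl reductase (-0.42), *Sh3kbp1* (-0.29), *Plekhb1* (-0.24), *Ppp1r14c*, an inhibitor of protein phosphatase 1 (-0.19), *P4ha1*, a collagen prolyl hydroxylase subunit (-0.18), and the proteasome subunit *Psma3* (-0.10), with adjusted p between 0.155 and 0.443. All 16 genes lay on the same side of 0 in both conditions. *Mss51* stood at 4.91, 12.5, and 29.3 FPKM in WT KPC mice and at 3.55, 8.28, and 14.6 FPKM in FoxP1SkmKO KPC mice, and its log2 fold change in tumor-free mice was -1.43. The difference between conditions had an unadjusted p of 0.00327 and an adjusted p of 0.764 by edgeR. The tumor-free values that chose this gene also enter that difference, so it is no independent test.

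**Figure D3:**
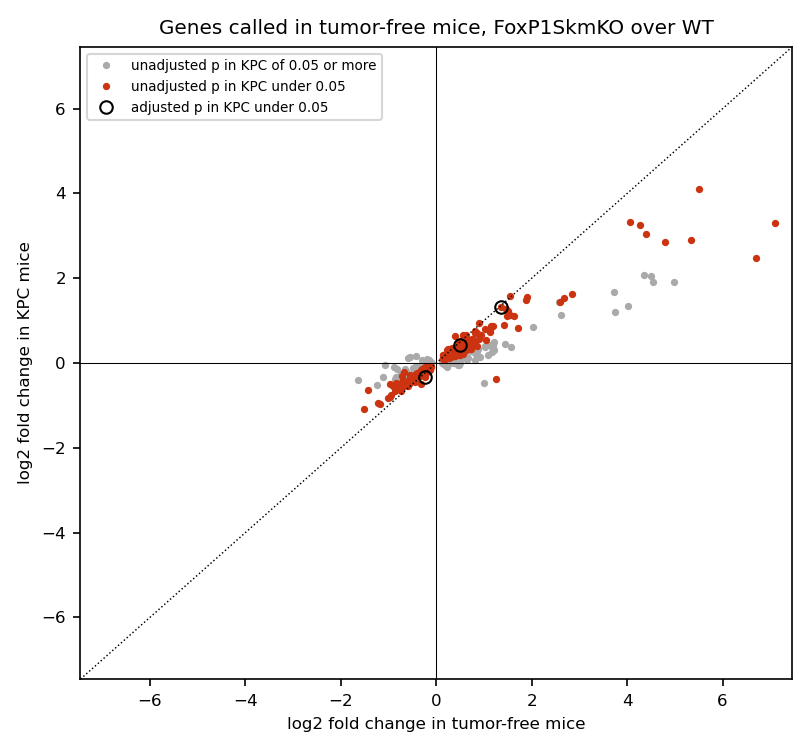
Log2 fold change of FoxP1SkmKO over WT in tumor-free mice (x axis) and in KPC mice (y axis) for the 535 genes called in tumor-free mice, 1 point per gene, colored by the unadjusted p in KPC mice, with the 3 genes called in KPC mice ringed. Most points, 503 of 535, lie in the quadrants where both values have the same sign.

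Gene lists for the pathways of wasting muscle were read by their counts, beside the 9.13% of all genes with an unadjusted p under 0.05 and the median log2 fold change of 0.00077 over all 15024 genes. Among 39 lists 1 held a called gene, the immediate early genes with *Nr4a1*. Of the 19 glucocorticoid-responsive genes tested, 19 lay above 0, with a median of 0.18, and 8 had an unadjusted p under 0.05. They included *Cdkn1a*, a cell cycle inhibitor (log2 fold change 0.71, adjusted p = 0.190), *Pdk4*, which restrains glucose oxidation (0.47, adjusted p = 0.455), the clock repressor *Per1* (0.45, adjusted p = 0.193), and *Glul*, glutamine synthetase (0.35, adjusted p = 0.480). *Cdkn1a* was also among the denervation genes by which FoxP1SkmKO KPC replicate 2 at CT26 and at CT30 stood apart. Its highest value in KPC mice, 8.84 FPKM, came from that replicate at CT30. FoxP1SkmKO KPC replicate 1 at CT38 and at CT22, which did not stand apart, had 6.82 and 6.42 FPKM, and WT KPC mice at most 5.25 FPKM. *Tsc22d3* and *Fkbp5*, which the glucocorticoid receptor induces in many tissues, were at 0.18 and 0.27 with adjusted p of 0.304 and 0.569. The counts were 18 of 19 above 0 and 8 with an unadjusted p under 0.05 without the 4 libraries that stood apart, and 18 of 19 and 4 without the 4 libraries with high macrophage or collagen sums (both WT KPC mice at CT18, WT KPC CT22 replicate 2, and FoxP1SkmKO KPC CT22 replicate 1). In tumor-free mice the glucocorticoid list had a median of 0.19, and 5 members were called higher, beside 1.93% of all genes.

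The 20 immediate early genes had 5 members with an unadjusted p under 0.05 above 0 and 1 below, with a median of 0.07. *Jun*, a subunit of AP-1, was at 0.24 (standard error 0.05, adjusted p = 0.0827) and *Btg2* at 0.21 (adjusted p = 0.388), while *Egr1* was at -0.34 (adjusted p = 0.476). Other members of the *Nr4a* family were near 0.04 (*Nr4a2*) and 0.20 (*Nr4a3*), with adjusted p of 0.980 and 0.868. When either set of 4 libraries was left out, 3 members above 0 had an unadjusted p under 0.05. In tumor-free mice the list had a median of 0.19, and 3 members were called higher, beside 1.93% of all genes.

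Of the 17 genes of denervation and the neuromuscular junction, 6 had an unadjusted p under 0.05 above 0 and none below, with a median of 0.14. Among them were the acetylcholine receptor subunits *Chrnb1* (0.31, adjusted p = 0.128) and *Chrna1* (0.58, adjusted p = 0.490) and sarcolipin, *Sln*, a regulator of the calcium pump (1.49, adjusted p = 0.370). Mean levels of *Sln* were 4.70 FPKM in FoxP1SkmKO and 1.11 FPKM in WT KPC mice. The count moved with the libraries that stood apart, and without those 4 it was 1 above and 2 below 0 of 16 tested. FoxP1SkmKO KPC replicate 2 at CT26 and at CT30 had been set apart by high levels of such genes, *Chrna1* among them. A lower count without them is therefore no independent test.

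The 16 myogenic regulators tested had 6 above and 1 below 0 with an unadjusted p under 0.05, which became 2 and 1 of 15 without the 4 libraries. *Myf6*, the main myogenic regulatory factor of adult fibers, averaged 54.9 FPKM in FoxP1SkmKO and 46.3 FPKM in WT KPC mice (log2 fold change 0.25, standard error 0.05, adjusted p = 0.0559). *Myod1* and *Myog* were at 0.36 and 0.40 (adjusted p = 0.248 and 0.404).

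Of the 14 atrophy ubiquitin ligases tested none was called, 2 had an unadjusted p under 0.05, and the median was 0.07. *Trim63* (MuRF1) averaged 54.2 FPKM in FoxP1SkmKO and 50.9 FPKM in WT KPC mice (log2 fold change 0.09, standard error 0.07, adjusted p = 0.768), and *Fbxo32* (atrogin-1) 39.4 and 35.7 FPKM (0.14, standard error 0.16, adjusted p = 0.837). Those 2 were *Asb2* (0.15) and *Cblb* (0.12). Of 28 autophagy and mitophagy genes 1 had an unadjusted p under 0.05, and of 35 proteasome genes 2 did, both below 0, *Psme2* (-0.38) and *Psma3* (-0.10). The proteasome list had a median of 0.008 in KPC and -0.06 in tumor-free mice, where 4 of 35 were called lower (1.68% of all genes were). For the difference between conditions 8 of 35 had an unadjusted p under 0.05, beside 6.52% of all genes, with none called.

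Genes of mitochondrial energy metabolism had no call. None of 37 genes of respiratory complex I, 39 of complexes II to V, 21 of the tricarboxylic acid cycle, and 13 of the mitochondrial genome had an unadjusted p under 0.05, and the median log2 fold changes of these lists were 0.00304, 0.00245, 0.018, and -0.03 in that order. Single genes of complex I lay between -0.07 and 0.09, and those of the mitochondrial genome, with 10 of 13 below 0, between -0.12 and 0.33. These sides were not stable. Without the 4 libraries that stood apart, 4 of the 13 mitochondrial genome genes lay below 0 (median 0.02). Of the 37 complex I genes, 24 then lay below 0 (median -0.02), against 16 with all libraries. Of 30 genes of glycolysis and glycogen none was called and 5 (16.7%) had an unadjusted p under 0.05, with a median of 0.02 over the list. Above 0 were *Pfkfb4* (0.14), the glycolytic kinase *Pgk1* (0.10), and *Ppp1r3d*, which targets protein phosphatase 1 to glycogen (0.38), and below 0 were the lactate dehydrogenase subunit *Ldhb* (-0.16) and the glycogen branching enzyme *Gbe1* (-0.13), with adjusted p of 0.299 to 0.498. The highest value of the list was that of *Gapdh*, a glycolytic dehydrogenase with many pseudogenes that may share its reads, at 0.76 with a standard error of 0.58 (adjusted p = 0.735). Of 38 fatty acid genes 4 had an unadjusted p under 0.05, all above 0, namely *Pdk4*, the uncoupling protein *Ucp3* (0.29), the lipid droplet protein *Plin4* (0.28), and the lipase *Pnpla2* (0.12). When the 4 libraries with high macrophage or collagen sums were left out, 1 lay above and 1 below 0.

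**Figure D4:**
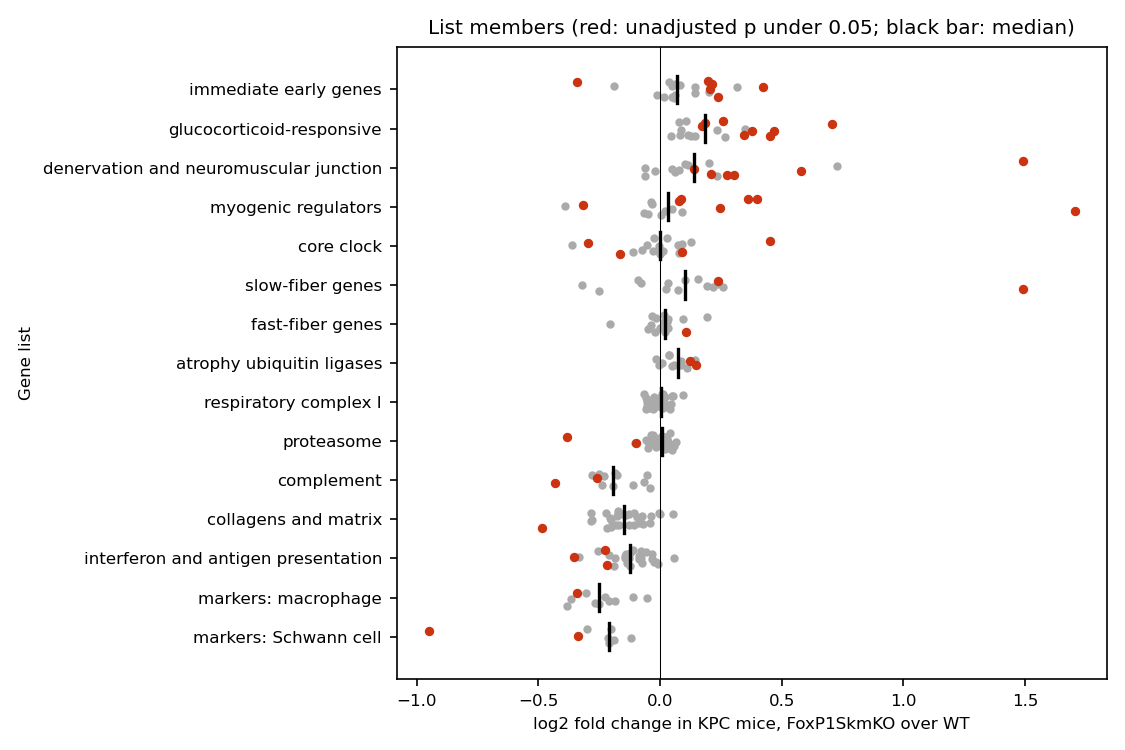
Log2 fold change of FoxP1SkmKO over WT in KPC mice (x axis) for each gene of the main lists (y axis), 1 point per gene, red where the unadjusted p was under 0.05, with a black bar at each list's median. All 19 glucocorticoid-responsive genes lie above 0, and the respiratory complex I genes lie between -0.07 and 0.09.

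The 20 core clock genes were all tested, and none was called. With an unadjusted p under 0.05 were *Per1* (0.45), *Tef* (0.09), *Nr1d1*, which encodes REV-ERBα (-0.29, adjusted p = 0.223), and *Hlf* (-0.17, adjusted p = 0.443). *Per1* had 3.16, 9.54, and 15.2 FPKM in WT KPC mice and 4.25, 11.5, and 23.2 FPKM in FoxP1SkmKO KPC mice, with both FoxP1SkmKO mice above both WT mice at 3 times. *Nr1d1* swung over the day from 6.07 to 70.0 FPKM in WT and from 6.96 to 60.9 FPKM in FoxP1SkmKO KPC mice, and its difference was below 0 at all 6 times.

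*Arntl* (also called *Bmal1*), the activator of the clock, was at 0.03 (standard error 0.11), and *Clock* at 0.08 (standard error 0.07). *Cry1* and *Cry2* were at 0.00 and 0.01 with standard errors of 0.05 and 0.06, *Per2* at 0.07, *Per3* at 0.09, and *Nr1d2* at -0.05. *Npas2*, a paralog of *Clock*, was at -0.36 (standard error 0.21), with a mean of only 0.189 FPKM in FoxP1SkmKO KPC mice. Outside *Per1*, *Nr1d1*, *Hlf*, and *Npas2*, the log2 fold changes over all times ran from -0.11 for *Bhlhe40* to 0.13 for *Nfil3*. These values average over the day. For a change of the genotype difference with time, 7 of the 20 had an unadjusted p under 0.05 by edgeR. The share over all genes was 7.36%, and no clock gene was called. *Clock* ran from -0.22 at CT18 to 0.59 at CT38, and *Dbp* from 0.59 at CT26 to -0.69 at CT38. *Cry1* stayed between -0.10 and 0.11.

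Several lists of genes of cells other than muscle fibers had medians below 0 in FoxP1SkmKO KPC mice. Of 30 collagen and matrix genes 29 did (median -0.15) with 1 at an unadjusted p under 0.05, of 13 complement genes all 13 (median -0.19) with 2 (15.4%), and of 11 macrophage markers all 11 (median -0.25), again with 1 at an unadjusted p under 0.05, *Lyz2* (-0.34). Markers of other cells lay on both sides of 0, with medians of 0.12 for 5 erythroid, 0.17 for 2 neutrophil, 0.06 for 3 lymphocyte, and -0.04 for 7 adipocyte markers. Without the 4 libraries that stood apart, 4 of 11 macrophage markers (36.4%, median -0.37) and 4 of 13 complement genes (30.8%, median -0.27) had an unadjusted p under 0.05, all below 0, beside 6.43% of all genes. The 2 neutrophil markers then had a median of -0.97, both with an unadjusted p under 0.05, while the matrix genes stayed at a median of -0.15. The macrophage, complement, and matrix values moved with CT18, where the summed macrophage markers were 63.1 and 79.2 FPKM in the WT KPC mice, against a median of 34.9 FPKM over all WT KPC mice and a range of 16.0 to 45.1 FPKM over FoxP1SkmKO KPC mice. Without CT18 the medians were 0.04 for the matrix genes, with 22 of 30 above 0, -0.04 for complement, and -0.02 for the macrophage markers. The 8 Schwann cell markers lay below 0 with CT18 (median -0.21) and without it (-0.19), and without the 4 libraries that stood apart 7 of 8 did (median -0.10). In tumor-free mice the Schwann cell markers had a median of -0.21. Of 28 interferon genes 27 lay below 0 (median -0.12), 3 of them with an unadjusted p under 0.05, and without CT18 all 28 did (median -0.17). In tumor-free mice the interferon list had a median of 0.19, and 9 of its 28 genes had an unadjusted p under 0.05 for the difference between conditions, beside 6.52% of all genes, with none called. Among the 9 were the guanylate-binding protein *Gbp2* (-0.35 in KPC and 0.23 in tumor-free mice), *Oasl2* (-0.18 and 0.26), and *Irf9*, a subunit of the interferon-stimulated transcription complex (-0.14 and 0.21). When the 4 libraries that stood apart were left out, 21 of 28 lay below 0 in KPC mice (median -0.06).

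Within single circadian times the 2 mice of each genotype were compared in the same fit. At CT18 4 of 15024 genes (0.0266%) were called, all lower in FoxP1SkmKO mice, and 1587 (10.6%) had an unadjusted p under 0.05. The genes were *Cd163* and *Dab2*, both expressed by resident macrophages, *Ccl21a*, a chemokine with near-identical copies in the genome that may share its reads, and *Gm10222*, a short gene on chromosome 1 that resembles mitochondrial DNA, so that its reads may belong to the mitochondrial copy. *Cd163* had 0.813 and 1.20 FPKM in FoxP1SkmKO and 2.37 and 2.79 FPKM in WT mice (log2 fold change -1.35, adjusted p = 0.0125). *Ccl21a* had 2.13 and 2.71 FPKM against 9.52 and 8.07 FPKM (-1.85, adjusted p = 0.0264). None of the other 5 times had an adjusted p under 0.05 for any of these 4 genes. Both WT mice at CT18 had the high macrophage sums given above, and their part in these values was not tested. Leaving out WT KPC replicate 1 or FoxP1SkmKO KPC replicate 2 of CT18 left 0 calls at that time, and leaving out FoxP1SkmKO KPC replicate 1 gave 132.

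Of the other times CT22, CT30, and CT34 each had 1 called gene (0.00666% each), *Timp4*, *Nr4a1*, and *Ankrd9* in that order, all higher in FoxP1SkmKO mice. The genes with an unadjusted p under 0.05 were 4.61%, 8.29%, and 5.93% of those tested at these times. CT26 and CT38 had no call by edgeR (0% each), with 974 (6.48%) and 1043 genes (6.94%) at an unadjusted p under 0.05. With a fit of the 4 libraries of a time alone, DESeq2 called 10 genes at CT26 and 18 at CT38. *Ankrd9*, an ankyrin-repeat protein, had 58.3 and 75.4 FPKM in FoxP1SkmKO mice at CT34 against 35.3 and 37.6 FPKM in WT mice (log2 fold change 0.88, standard error 0.11, adjusted p = 0.000958). At the other times its log2 fold change ran from -0.16 to 0.23. The calls at these times rested on single mice, since 0 genes were called at CT22 without replicate 1 of either genotype, at CT30 without WT KPC replicate 1 or FoxP1SkmKO KPC replicate 2, and at CT34 without WT KPC replicate 1. At CT30 198 genes were called without FoxP1SkmKO KPC replicate 1.

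One gene of 15024 (0.00666%) had an effect of FoxP1 deletion that differed between circadian times in KPC mice, and 1106 (7.36%) had an unadjusted p under 0.05 for that difference. It was *Timp4* (ENSMUSG00000030317; mm39 chromosome 6, 115218853 to 115229166, minus strand), a tissue inhibitor of metalloproteinases abundant in muscle and heart (adjusted p = 0.00739). At CT22 it had 11.8 and 9.19 FPKM in FoxP1SkmKO mice and 4.60 and 5.08 FPKM in WT mice, a log2 fold change of 1.11 (standard error 0.14, adjusted p = 0.00128). At CT34 it had 8.22 and 9.69 FPKM against 5.96 and 4.72 FPKM (0.75). At CT18 the order was reversed, with 6.42 and 5.94 FPKM in FoxP1SkmKO and 8.50 and 7.16 FPKM in WT mice (-0.35), as it was at CT30 (-0.36). The genotypes lay close together at CT26 (0.11) and at CT38 (0.00).

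At CT22 the tumor-free mice had the opposite order, 7.51 and 6.11 FPKM in FoxP1SkmKO and 8.32 and 8.85 FPKM in WT mice. Leaving out single libraries gave *Timp4* an adjusted p of 0.00377 to 0.0656 for the difference between times, and the call was lost only without WT KPC CT22 replicate 1. Without the 4 libraries that stood apart, which left CT18, CT26, and CT30 with fewer mice, it was 0.280.

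**Figure D5:**
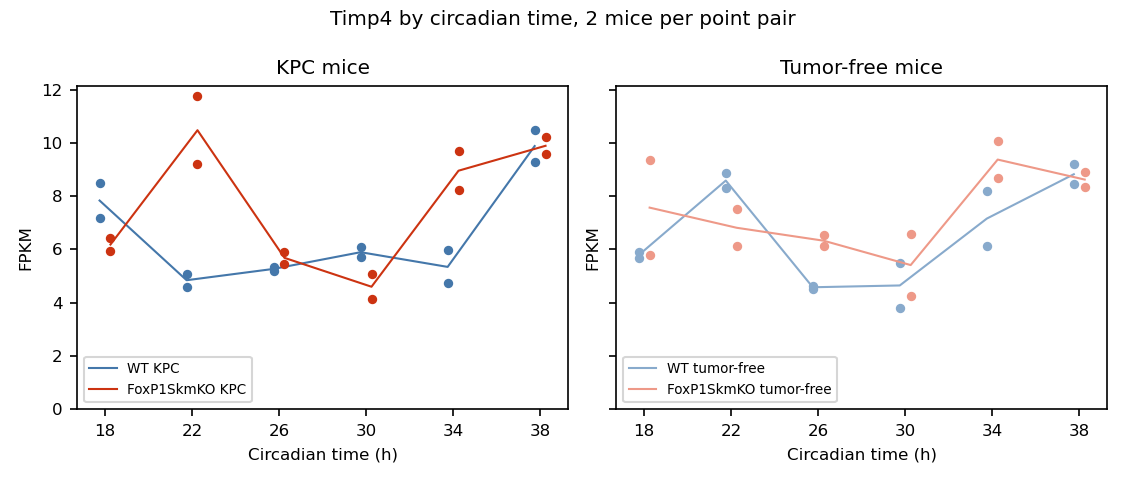
FPKM of *Timp4* (y axis) against circadian time in hours (x axis) in KPC mice (left) and tumor-free mice (right), with 1 point per mouse and a line through the mean of the 2 mice of a genotype at each time. In KPC mice the FoxP1SkmKO line lies above the WT line at CT22 and CT34 and below it at CT18 and CT30.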

How the data were processed

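RNA was isolated from the tibialis anterior with Trizol, poly-A selected, and sequenced as Illumina paired-end reads. The authors aligned the reads to mm39, with STAR and HTSeq in the study's methods and HISAT2 2.0.5 and DESeq2 1.20.0 in the submitters' processing notes, and deposited raw read counts per gene in 12 comparison tables of 4 libraries each, beside normalized counts and their own comparisons of KPC with control mice, which were not used. FPKM values, which the authors derived by scaling the counts to gene length and library total, were deposited in 1 table of 48 libraries. The labels name both a strand-specific and a non-specific protocol, so reads from overlapping antisense genes cannot be told apart.

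Counts were joined over the 24 KPC libraries, and 0 or 1 read of genes that a table left out were recovered from the FPKM values. edgeR 4.0.16 (R 4.3.3) was used for TMM scaling, filterByExpr, and quasi-likelihood F-tests with genotype and circadian time as terms, for the difference from tumor-free mice, and for time-specific effects, with Benjamini-Hochberg adjustment and a threshold of 0.05. The fits were tested on simulated data. FPKM describes levels. Alternatives were DESeq2 1.42.0, limma 3.58.1 on log2 FPKM with a pseudocount of 1 or 0.1, other scalings and filters, replicate numbers as a block, length and GC corrections (span 0.4), and leaving out libraries or times. Nothing in the labels says that the mice of a group came from separate litters or cages, so the p-values measure the spread between these mice.

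The genotype comparison and the gene lists were chosen with earlier results of these data known. The text names *Foxp1*, the core clock genes, called genes, the 6 smallest p in each direction with a mean log2 CPM of at least 0, and list members described by count. Groups came from GEO's labels.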

Additional observations from a re-analysis of the deposited data

Results flagged for a closer look

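*Timp4* was the one result in which the effect of FoxP1 deletion differed between circadian times in KPC mice, by the test of that difference itself (adjusted p = 0.00739 in edgeR, 1 of 15024 genes). It was above WT at CT22 and CT34 and below at CT18 and CT30, with log2 fold changes of 1.11, 0.75, -0.35, and -0.36 from 2 mice of each genotype at each time.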

How the results depend on the processing

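The count of 3 genes called between FoxP1SkmKO KPC and WT KPC mice was 3 with DESeq2 size factors and with upper-quartile scaling, and 4 after a GC correction. It was 442 without a filter on low counts, 8 with a mean CPM of at least 1, 62 with DESeq2, 50 with all 48 libraries in 1 fit, 9 after a length correction, and 1 and 0 with limma on log2(FPKM + 1) and log2(FPKM + 0.1), the 1 gene being none of the 3. It was 85, 0, and 0 without CT22, CT30, and CT34, and 0 without the 2 libraries with high *Chrna1*, the 4 that stood apart, or the 4 with high macrophage or collagen sums (sets of libraries chosen after seeing the data). Without CT18, CT26, and CT38 it was 4, 3, and 3, but the genes changed. Of the 3 genes only *Nr4a1* stayed without CT18, *Wls* was lost without CT26, and *Slc25a25* was lost without CT38. Leaving out 1 library gave 0 to 71. As well as the libraries named above, WT KPC CT26 replicate 1 (26), FoxP1SkmKO KPC replicate 1 of CT18 (13) and CT26 (11), FoxP1SkmKO KPC CT38 replicate 2 (12), FoxP1SkmKO KPC CT18 replicate 2 (7), FoxP1SkmKO KPC CT22 replicate 1 (5), and WT KPC CT18 replicate 1 (5) moved it by over 1.5 times.

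The log2 fold changes over these 45 alternatives were 0.33 to 0.47 for *Nr4a1*, 1.07 to 1.53 for *Slc25a25*, and -0.37 to -0.23 for *Wls*, with calls lost in 11, 17, and 14 of them. *Foxp1* ran from -0.26 to -0.08, was called in none, and without 1 library at a time ran from -0.243 to -0.166. With the replicate block of 12 pairs 0 genes were called, and with the replicate number as a term 3. The correlation over genes of the deviations of same-numbered mice ran from -0.094 to 0.183 over the 6 times. Each value rests on 1 pair of mice per genotype, so it cannot show whether such mice shared a litter, cage, or batch. *Cd163* changed sign without CT18 (0.040) and without the 4 libraries with high macrophage or collagen sums (0.058), and *Clock* without CT38 (-0.011).

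The 255 tumor-free calls with the same sign and an unadjusted p under 0.05 were 151 without the 4 libraries and 205 to 298 without 1 library. The 546 tumor-free calls became 986 without a filter and 259, 338, and 267 without CT18, CT22, and CT38 (407 to 623 without 1 library). The 0 genes that differed between conditions became 104 without a filter and 0 to 4 without 1 library, with 4 only without WT KPC CT30 replicate 2. The 1 gene that differed between times became 769 without a filter, 27 with DESeq2, 0 without the 4 libraries, and 0 to 6 without 1 library.

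At single times, CT18 to CT38 in order, no filter gave 488, 76, 127, 348, 164, and 106 calls, DESeq2 28, 4, 2, 29, 15, and 1, and DESeq2 on the 4 libraries of a time 114, 19, 10, 35, 67, and 18. Without the 4 libraries CT18, CT22, and CT30 had 0, 2, and 0. Without 1 library the ranges were 0 to 132, 0 to 2, 0 to 2, 0 to 198, 0 to 5, and 0 to 2, where a lone mouse was assumed to vary like the other groups. The cause of these changes was not tested. With 2 mice of a genotype at a time, the standard error of the log2 difference of *Foxp1* was 0.170 to 0.179 at single times, against 0.08 over all 24 libraries.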

Other observations

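The other forkhead genes of the muscle were measured beside *Foxp1*. *Foxo3*, which drives autophagy genes in wasting muscle, averaged 4.70 FPKM in FoxP1SkmKO and 4.28 FPKM in WT KPC mice (log2 fold change 0.13, unadjusted p = 0.0443 in edgeR). Of the 9 FoxP, FoxO, and FoxK genes tested, *Foxo3* among them, 0 were called after adjustment. Without CT18, 0 of the 9 had an unadjusted p under 0.05. *Foxo1* was at 0.08 (adjusted p = 0.853), *Foxp4* at -0.04 (adjusted p = 0.930), and *Foxp2* at -0.07 (adjusted p = 0.933). Of 22 genes within 5 Mb of *Foxp1*, 2 had an unadjusted p under 0.05 (9.09%, beside 9.13% of all genes) and 0 were called.

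Of 26 tested genes of the JAK-STAT3, C/EBP, and NF-kB pathways 1 had an unadjusted p under 0.05 in KPC mice, *Pim1*, a kinase that STAT factors induce, at a mean of 7.22 FPKM in FoxP1SkmKO and 5.28 FPKM in WT mice (log2 fold change 0.47, adjusted p = 0.129). In the myostatin and activin list *Fst*, the secreted antagonist follistatin, was at -0.53 (adjusted p = 0.443) and *Gdf11* at -0.23 (adjusted p = 0.480), with 2 of 20 members above and 2 below 0 at an unadjusted p under 0.05. In the list of developmental and stress sarcomere genes *Actc1*, the cardiac actin of immature or regenerating fibers, averaged 207 FPKM in FoxP1SkmKO and 131 FPKM in WT KPC mice (log2 fold change 0.74, adjusted p = 0.419).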
